A study of Homo sapiens with 6 samples.

Results

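The genes of phosphatidylcholine synthesis and the lipins were examined in MDA-MB-231 cells, a triple-negative human breast cancer line of mesenchymal character, after treatment with the methyl donor S-adenosylmethionine (SAM). A total of 10 genes were listed by their place in this pathway (PEMT, PCYT1A, PCYT1B, PCYT2, CHKA, CHKB, CHPT1, CEPT1, LPIN1 and LPIN2), and a gene was taken as measured where a row of the deposited table, a transcript cluster of the array, carries its symbol in the platform annotation. This held for 6 of the 10, each with 1 row, among 14884 gene symbols in all. The 10 were chosen with earlier results of these data known. No row was identified for PCYT1A, PCYT1B, PCYT2 and CHKB, which were not analysed here. The annotation used gives a single symbol to 16098 of the 53617 transcript clusters, so here and below a gene not counted as measured is one whose row was not identified, which does not show that the array lacks it; a row named for CHKB-CPT1B, a read-through of CHKB into its neighbor, was not counted as CHKB. The samples were 3 cultures given 200 μM SAM, added to the medium every other day by the study's plan for cultured cells, and 3 Control cultures, which the labels call untreated and the study's methods describe as vehicle-treated in its culture experiments. RNA of each was hybridized to 1 Affymetrix Human Gene 2.0 ST array. The values are log2 signals processed by the authors with RMA, which corrects the background, equalizes the arrays by quantiles and summarizes the probes of each transcript cluster, so every value is relative to the RNA on its array. Less RNA per cell and fewer cells that express a gene cannot be told apart in such samples.

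The median log2 signal of an array was 4.83 to 4.85 in SAM cultures and 4.75 to 4.83 in Control cultures, and each of the 6 genes lay above it on every array. Control replicate 1 had the lowest mean correlation with the other arrays, 0.964, against 0.974 to 0.980 for the other 5. All 5 measured markers of the line (VIM, CD44, AXL, MSN and ANXA1) were above every array's median, at log2 signals of 7.58 to 11.6. Of the 5 measured markers of other breast lineages, 2 (GATA3 and EPCAM) were above every array's median, and ESR1, the estrogen receptor, had 4.80 to 5.37. CD68 and PECAM1 were the 2 of 4 measured leukocyte, endothelial and stromal markers above it, whereas the stromal marker DCN had 2.62 to 2.91, and no rows were identified for PTPRC and CD3E. The summed linear signal of those 4 was 1634 to 1960 in SAM cultures and 1299 to 1417 in Control cultures, and its part in the results was not tested. Nearly all of that sum was CD68, at log2 signals of 10.2 to 10.9, so it describes 1 gene rather than these cell types together. The highest log2 signals of PECAM1, VWF and DCN were 5.85, 5.19 and 2.91.

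Phosphatidylcholine is the main phospholipid of mammalian membranes. Most cells make it by the CDP-choline (Kennedy) route, in which choline kinases (CHKA, CHKB) phosphorylate choline, the enzymes encoded by PCYT1A and PCYT1B couple it to CTP in the step that usually sets the rate, and choline phosphotransferases (CHPT1, CEPT1) join it to diacylglycerol. PEMT, best known from liver, instead adds methyl groups from SAM to phosphatidylethanolamine, whose own synthesis runs in part through PCYT2. The lipins are phosphatidate phosphatases that supply the diacylglycerol used for phosphatidylcholine, phosphatidylethanolamine and triacylglycerol, and LPIN1 also acts as a transcriptional coregulator and is known as a target of the sterol-responsive factors SREBP.

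LPIN1 was lower in SAM cultures, and no other of the 6 genes passed the thresholds of the study's methods, an unadjusted P under 0.01 and a fold change over 1.5. These thresholds were applied to the moderated test of limma, fitted to 53617 transcript clusters, of which 1.09% passed in either direction and 0.621% passed as lower in SAM. By that rule 1 of 6 genes was called lower, 0 were called higher and 5 were not called. An adjusted p under 0.05 in limma was reached by 0 of the 6 and by 0 of all 53617 transcript clusters. For 1 of 6 the unadjusted P in limma was under 0.05, as it was for 7.99% of all transcript clusters. The plain test with equal variance also called LPIN1 alone. The log2 fold change was negative for 4 of the 6 and positive for 2, with a median of -0.17, against a median of -0.02 over the 16098 transcript clusters with a symbol, of which 53.9% were negative. The SAM and Control arrays did not overlap for 2 of the 6 genes, LPIN1 and CHPT1, as was the case for 15.1% of all transcript clusters and 18.4% of those with a symbol. Since the listed genes were chosen with earlier results of these data known, setting them beside these shares is not a test of the group.

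**Figure D1:**
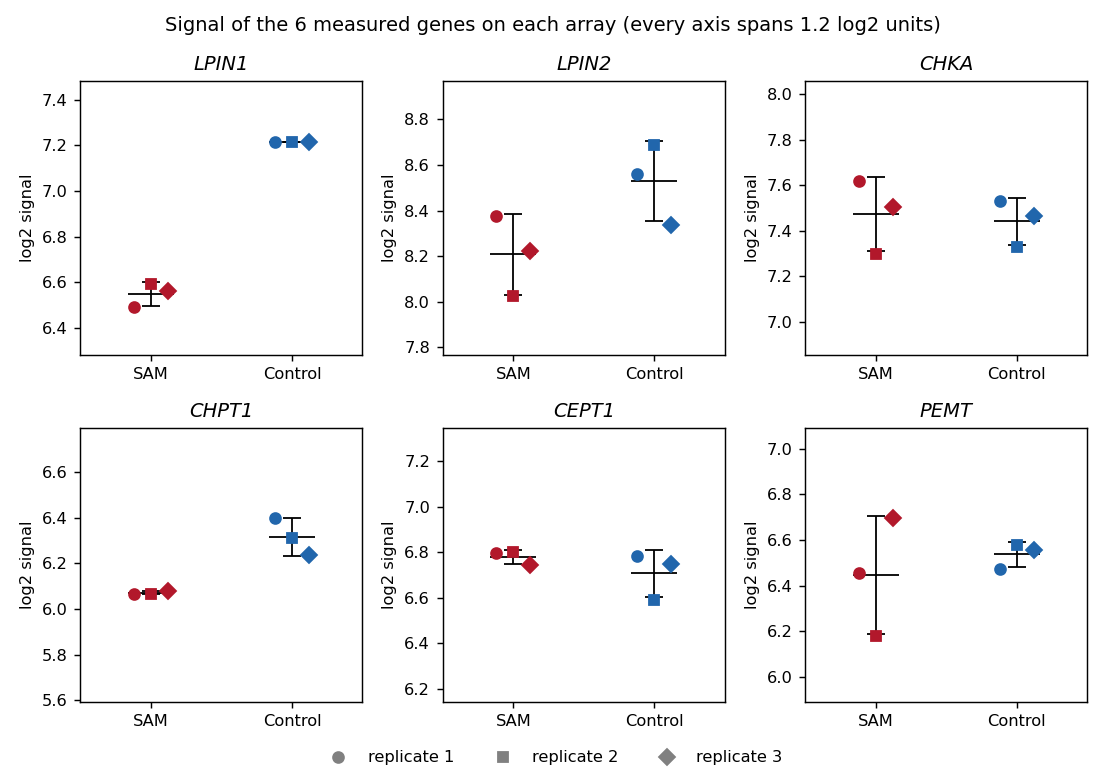
Log2 signal (vertical axis) of the 6 measured genes in SAM (left, red) and Control (right, blue) cultures; each point is 1 array, its shape the replicate number, and the horizontal line with its bar is the mean ± SD of 3 arrays. LPIN1 has the widest gap between the groups, CHPT1 a narrower one, and the groups overlap for LPIN2, CHKA, CEPT1 and PEMT.

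LPIN1 had log2 signals of 6.49, 6.59 and 6.56 in SAM replicates 1 to 3, against 7.22, 7.22 and 7.21 in the Control replicates. All 3 SAM arrays were below all 3 Control arrays, with a gap several times the spread within either group. The mean was 6.55 ± 0.052 in SAM cultures and 7.22 ± 0.0014 in Control cultures (SD, n = 3 each), a log2 fold change of -0.67 (SE 0.11, 95% interval -0.93 to -0.40) or 1.59-fold lower in SAM cultures (unadjusted P = 4.91e-04, adjusted p = 0.517 in limma). Only 0.0802% of all transcript clusters had a smaller P. The Control arrays lay closer together for LPIN1 than for nearly any other row, since 0.00373% of transcript clusters had a smaller Control SD and the median Control SD was 0.197; the moderated test widens such a small spread toward that of the other rows. LPIN1 is also among the genes that the study called on these same arrays, so its direction is not independent evidence.

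LPIN2, the lipin with a role known from an inherited inflammatory bone disease, had log2 signals of 8.38, 8.02 and 8.22 in SAM replicates 1 to 3, against 8.56, 8.69 and 8.34 in the Control replicates. SAM replicate 1 was above Control replicate 3, so the groups overlapped. The mean was 8.21 ± 0.18 in SAM cultures and 8.53 ± 0.18 in Control cultures (SD, n = 3 each), with a log2 fold change of -0.32 (SE 0.15, 95% interval -0.68 to 0.04, adjusted p = 0.647 in limma). That interval reaches past a 1.5-fold decrease (0.58 on the log2 scale) on its lower side.

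LPIN3, the remaining lipin, which was not on the list of 10 and was singled out after its values were seen, had log2 signals of 7.10, 6.63 and 6.84 in SAM replicates 1 to 3, against 6.59, 6.73 and 6.84 in the Control replicates. The groups overlapped, and the log2 fold change was 0.14 (SE 0.16, 95% interval -0.23 to 0.51, adjusted p = 0.825 in limma). Whether LPIN1 and LPIN2 changed unequally was tested on their log2 ratio within each array. LPIN1 minus LPIN2 was -1.88, -1.43 and -1.66 in SAM replicates 1 to 3, against -1.34, -1.47 and -1.12 in the Control replicates, where a single SAM array, replicate 2, was above a Control array. The mean ratio differed by -0.35, from -1.66 ± 0.23 in SAM and -1.31 ± 0.18 in Control cultures (SD, n = 3 each; exact permutation test, two-sided p = 0.2, with 0.1 the smallest p that 3 arrays against 3 allow). A test of this size cannot pass 0.05, so whether LPIN1 decreased more than LPIN2 was not settled.

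The sequences upstream of these lipins are shown because the study asked about DNA methylation at promoters, a mark laid on CpG dinucleotides with SAM as the methyl donor; methylation was not measured in the arrays. RefSeq's table (GRCh38.p14) gives 300 bases around each start site, 250 before and 50 after it, for 9 of the 10 genes and 5 of the 6 measured (CHKA is not among them). Where a gene has several start sites the window with the most CpG is printed, since which start these cells use is not known here. LPIN1 has 3 windows, with 29, 8 and 6 CpG, and LPIN2 has 2, with 52 and 8; the median over all 35116 windows was 14. Capitals mark matches on either strand to the E-box CACGTG, the GC box GGGCGG, the CCAAT box CCAAT or the sterol regulatory element motif TCACNCCAC, which occur at least once in 7.26%, 45.0%, 34.6% and 1.13% of all windows.
LPIN1, chr2:11746382-11746681 (+ strand): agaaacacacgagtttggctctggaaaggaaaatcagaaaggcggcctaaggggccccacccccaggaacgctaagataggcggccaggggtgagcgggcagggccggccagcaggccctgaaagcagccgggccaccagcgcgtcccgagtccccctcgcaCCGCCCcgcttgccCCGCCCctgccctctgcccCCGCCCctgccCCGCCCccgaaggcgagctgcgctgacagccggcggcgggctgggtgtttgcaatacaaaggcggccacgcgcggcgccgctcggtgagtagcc
LPIN2, chr18:3013095-3013394 (- strand): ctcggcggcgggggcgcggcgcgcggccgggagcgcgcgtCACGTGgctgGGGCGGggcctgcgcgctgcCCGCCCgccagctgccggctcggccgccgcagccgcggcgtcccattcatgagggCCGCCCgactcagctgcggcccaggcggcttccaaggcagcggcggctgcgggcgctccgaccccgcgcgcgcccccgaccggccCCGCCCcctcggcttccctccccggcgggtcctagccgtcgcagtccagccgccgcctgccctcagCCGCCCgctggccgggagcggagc
The LPIN1 window holds 4 GC boxes, all read on the opposite strand. The LPIN2 window holds 5 GC boxes and 1 E-box. Neither printed window holds a CCAAT box or the sterol motif, which says only that these letters are not in this stretch, and a match is not evidence of a bound factor.

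In the CDP-choline route CHPT1 had the largest difference of the 3 measured genes. CHPT1, the cholinephosphotransferase of the Golgi, had log2 signals of 6.07, 6.07 and 6.08 in SAM replicates 1 to 3, against 6.40, 6.31 and 6.24 in the Control replicates. All SAM arrays were below all Control arrays. The mean was 6.07 ± 0.0063 in SAM cultures and 6.32 ± 0.082 in Control cultures (SD, n = 3 each), a log2 fold change of -0.25 (SE 0.12, 95% interval -0.52 to 0.03, adjusted p = 0.647 in limma). It passed neither threshold in limma. In the plain test with equal variance CHPT1 had an unadjusted P of 0.00666, which passed the P threshold, and only the fold change fell short. The 3 SAM arrays were unusually close together, with 0.119% of transcript clusters having a smaller SD in SAM cultures, where the median was 0.169.

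CHKA, the choline kinase best known for its high level in many tumors, had log2 signals of 7.62, 7.30 and 7.50 in SAM replicates 1 to 3, against 7.53, 7.33 and 7.46 in the Control replicates. The groups overlapped in full, with a log2 fold change of 0.03 (SE 0.14, 95% interval -0.29 to 0.35, adjusted p = 0.958 in limma). CEPT1, which makes phosphatidylcholine as well as phosphatidylethanolamine in the endoplasmic reticulum, had 6.80, 6.80 and 6.75 in SAM replicates 1 to 3, against 6.78, 6.59 and 6.75 in the Control replicates. Its groups overlapped too, with a log2 fold change of 0.07 (SE 0.12, 95% interval -0.21 to 0.35, adjusted p = 0.884 in limma). For these 2 genes a change of 1.5-fold in either direction lies outside the 95% interval, and smaller changes could not be told from 0 with 3 arrays in each group.

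PEMT, the only enzyme of the list that consumes SAM, did not differ between the groups beyond the spread of the arrays. Its log2 signals were 6.46, 6.18 and 6.70 in SAM replicates 1 to 3, against 6.47, 6.58 and 6.56 in the Control replicates. The SAM arrays lay on both sides of the Control arrays, with SAM replicate 2 the lowest of the 6 and SAM replicate 3 the highest. The mean was 6.44 ± 0.26 in SAM cultures and 6.54 ± 0.056 in Control cultures (SD, n = 3 each), a log2 fold change of -0.09 (SE 0.16, 95% interval -0.46 to 0.28, adjusted p = 0.886 in limma). The value depended on single arrays, with a log2 fold change of 0.04 (SE 0.14) without SAM replicate 2 and of -0.22 (SE 0.16) without SAM replicate 3. PEMT could not be set against PCYT1A, the enzyme of the step that usually sets the rate of the other route, because no row was identified for PCYT1A.

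The windows of CHPT1 and PEMT are given with the same marks, as the CDP-choline gene whose groups did not overlap and the gene that uses SAM. CHPT1 has 1 window, and PEMT has 3, with 29, 17 and 6 CpG.
CHPT1, chr12:101697390-101697689 (+ strand): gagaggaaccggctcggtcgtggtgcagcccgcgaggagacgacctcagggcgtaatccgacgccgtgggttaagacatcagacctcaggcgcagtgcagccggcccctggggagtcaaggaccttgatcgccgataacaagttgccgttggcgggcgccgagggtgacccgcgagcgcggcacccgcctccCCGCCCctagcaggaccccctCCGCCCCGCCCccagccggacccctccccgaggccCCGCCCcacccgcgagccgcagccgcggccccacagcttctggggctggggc
PEMT, chr17:17591659-17591958 (- strand): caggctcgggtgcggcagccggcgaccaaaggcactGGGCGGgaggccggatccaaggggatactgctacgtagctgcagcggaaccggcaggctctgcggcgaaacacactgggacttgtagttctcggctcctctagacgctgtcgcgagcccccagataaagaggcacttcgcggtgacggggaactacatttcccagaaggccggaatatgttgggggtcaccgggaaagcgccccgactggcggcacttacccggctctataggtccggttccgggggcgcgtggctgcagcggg
The CHPT1 window has 34 CpG and 4 GC boxes, of which a pair overlap. The PEMT window has 29 CpG, as many as that of LPIN1, and 1 GC box. The windows of LPIN1, LPIN2 and PEMT were picked as the richest in CpG of each gene, so their counts are not comparable with the median over all windows.

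**Figure D2:**
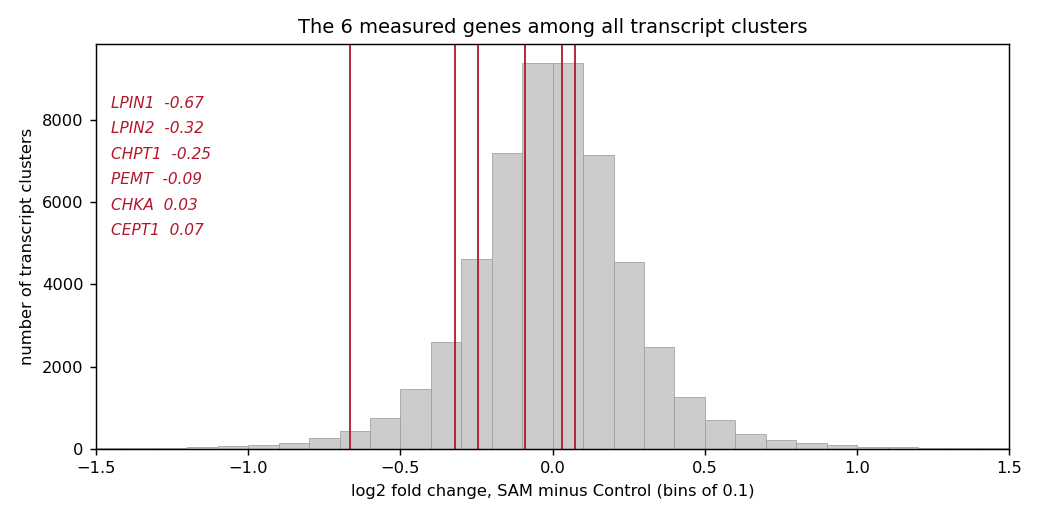
Number of transcript clusters (vertical axis) by log2 fold change, SAM minus Control (horizontal axis, bins of 0.1, cropped at 1.5 on each side); red lines are the 6 measured genes, listed with their values. LPIN1 at -0.67 lies in the lower tail, while PEMT, CHKA and CEPT1 lie within the central bins.

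The genes around these routes were taken from lists of 67 further genes of phospholipid and glycerolipid metabolism, of which 44 were measured. None (0) of the 44 was called in limma, against 1.09% of all transcript clusters. At that share few or no calls are expected among 44 genes, and the counts of 0 in the lists below are to be read against it too. An unadjusted P under 0.05 in limma was found for 3 (7.99% of all transcript clusters had one), and the plain test with equal variance called 0. The log2 fold change was negative for 30 and positive for 14, with a median of -0.09, where 53.9% of transcript clusters with a symbol were negative. The groups did not overlap for 9 (8 lower and 1 higher in SAM), or 20.5%, against 18.4% of transcript clusters with a symbol. Those 2958 transcript clusters without overlap were also mostly lower, 1854 against 1104 higher in SAM. The lists of further genes, too, were chosen with earlier results of these data known.

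Among the phosphatidate phosphatases, PLPP3, a lipid phosphate phosphatase of the cell surface, was nearest to a call. It had log2 signals of 6.39, 5.74 and 6.35 in SAM replicates 1 to 3, against 6.77, 6.88 and 6.63 in the Control replicates. All SAM arrays were below all Control arrays, and SAM replicate 2 was farthest from them. The log2 fold change was -0.60 (SE 0.20, 95% interval -1.06 to -0.14, adjusted p = 0.578 in limma), which passed the fold change minimum and not the P threshold; it passed both when only the transcript clusters with 1 symbol were fitted. The list of this group has 8 genes, all measured, among them LPIN1, LPIN2 and LPIN3. It also holds CTDNEP1 and CNEP1R1, which are not themselves phosphatidate phosphatases. Of the 8, 7 had a negative and 1 a positive log2 fold change (median -0.21), where 53.9% of transcript clusters with a symbol were negative. LPIN1 was the only call. For PLPP2, a related phosphatase, the log2 fold change was -0.24 with an SE of 0.14 (adjusted p = 0.691 in limma).

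In the CDP-ethanolamine route and the synthesis of phosphatidylserine, from which phosphatidylethanolamine is also made, 0 of the 6 measured genes beside CEPT1 were called in limma. An unadjusted P under 0.05 was found for 0 of them, against 7.99% of all transcript clusters. The ethanolamine kinase gene ETNK1 had a log2 fold change of -0.09 (SE 0.15), and SELENOI, the ethanolaminephosphotransferase, one of 0.19 (SE 0.19). PTDSS1, a phosphatidylserine synthase that uses phosphatidylcholine as its substrate, had log2 signals of 9.24, 8.78 and 9.17 in SAM replicates 1 to 3, against 8.72, 8.45 and 8.90 in the Control replicates. Its groups overlapped, and its log2 fold change was 0.38 (SE 0.18, 95% interval -0.04 to 0.79, adjusted p = 0.647 in limma). PTDSS2, the synthase that uses phosphatidylethanolamine, had one of 0.11 (SE 0.13).

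Of 11 genes of choline transport and oxidation, 3 were measured and 0 were called. BHMT, which passes a methyl group from betaine, the product of choline oxidation, to homocysteine, had the lowest log2 fold change of them (-0.46, SE 0.21, adjusted p = 0.639 in limma), at log2 signals of 4.04 to 4.34 in SAM cultures and 4.24 to 5.01 in Control cultures. BHMT was the only one of them with values under the array medians. FLVCR1, a transporter of choline and heme, had a log2 fold change of -0.07 (SE 0.13).

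Among 9 measured genes that remodel or transfer phosphatidylcholine and related phospholipids, 0 were called, and 2 had an unadjusted P under 0.05 in limma. Over all transcript clusters these shares were 1.09% and 7.99%, and 2 of 9 in a list chosen with earlier results known is not a test of the list. MBOAT7, an acyltransferase of lysophosphatidylinositol, had log2 signals of 8.54, 8.60 and 8.53 in SAM replicates 1 to 3, against 8.30, 8.19 and 8.33 in the Control replicates, without overlap (log2 fold change 0.28, SE 0.12, adjusted p = 0.622 in limma). MBOAT1, another lysophospholipid acyltransferase, had one of -0.43 (SE 0.17, adjusted p = 0.619 in limma), and its groups overlapped. Of 7 measured genes of phosphatidylcholine breakdown 0 were called; the phospholipase D gene PLD2 had a log2 fold change of -0.30 (SE 0.15) and the lysophospholipase gene PNPLA7 one of 0.40 (SE 0.19), both at adjusted p values of 0.647 to 0.648 in limma.

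Other users of phosphatidate and diacylglycerol gave no call either. Of 7 measured genes of triacylglycerol synthesis, storage and breakdown, DGAT1, an enzyme of the last step of triacylglycerol synthesis, had a log2 fold change of -0.31 (SE 0.16), and PLIN2, a coat protein of lipid droplets, one of -0.32 (SE 0.16). DGAT1 and PLIN2 had adjusted p values of 0.665 and 0.663 in limma. Of 5 measured genes of the CDP-diacylglycerol branch, which leads to phosphatidylinositol and cardiolipin, CDS2 and PGS1 each had a log2 fold change of -0.20 (SE 0.13 for CDS2 and 0.16 for PGS1). GPAT3, an acyltransferase that starts phosphatidate synthesis, was the only measured gene of 9 in its list, at -0.17 (SE 0.17).

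**Figure D3:**
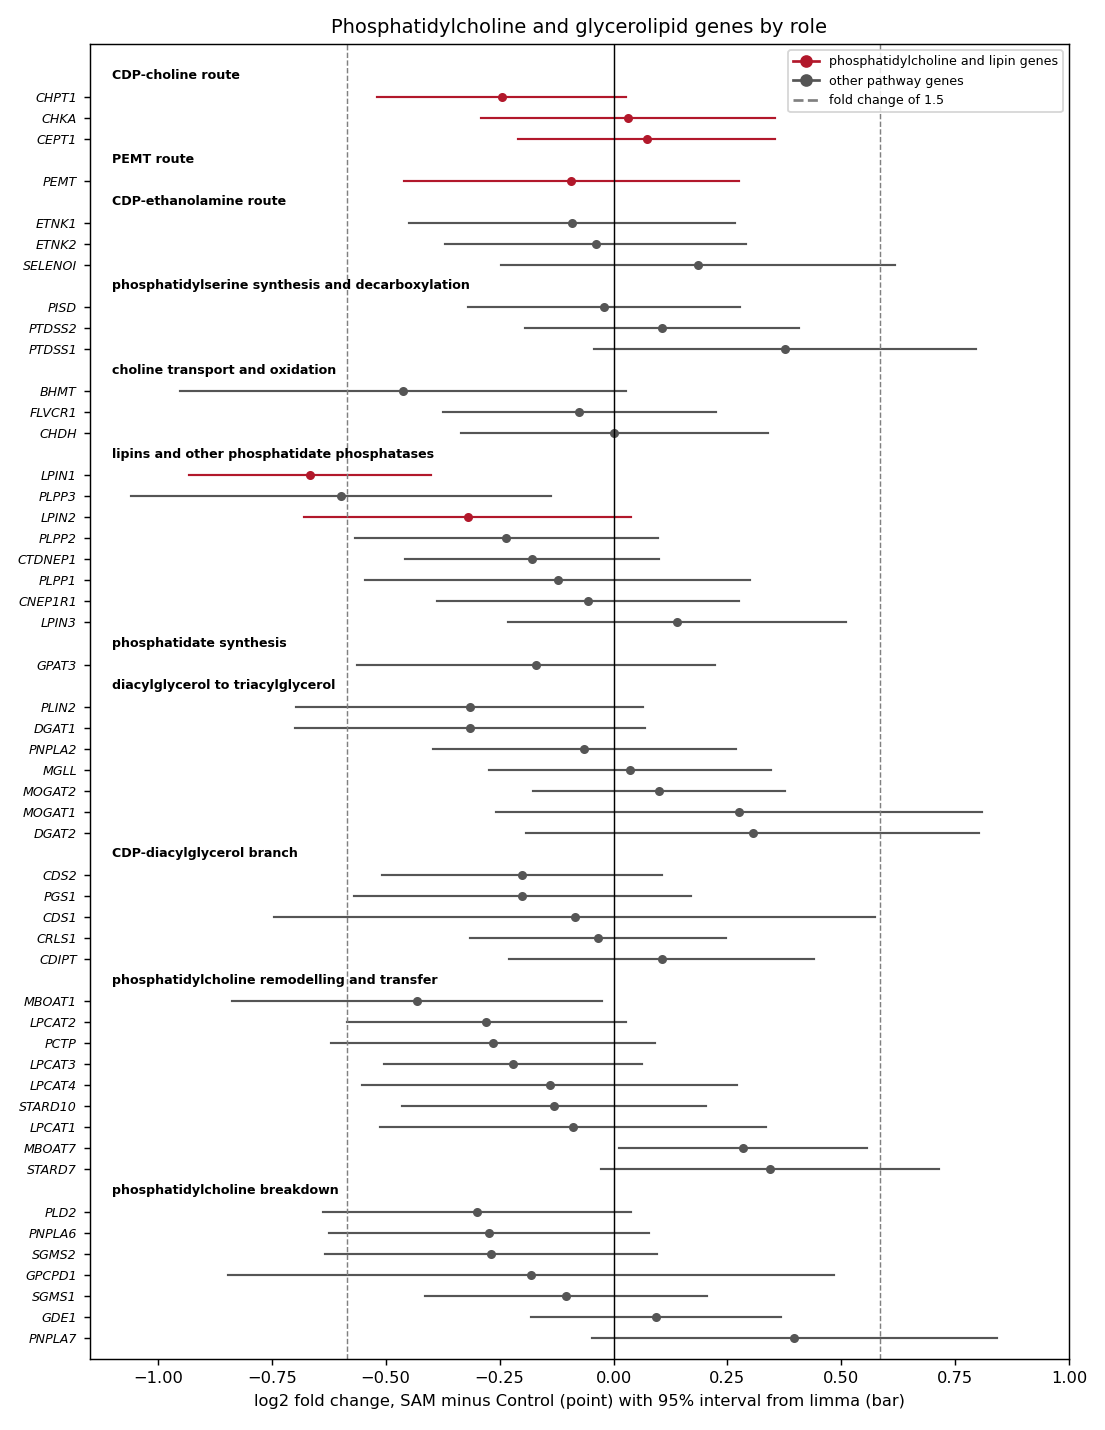
Log2 fold change, SAM minus Control (horizontal axis, points), with 95% intervals from limma (bars) for the 6 measured phosphatidylcholine and lipin genes (red) and 44 other measured genes (grey), grouped by role; n = 3 arrays in each group. The interval excludes 0 for LPIN1, PLPP3, MBOAT1 and MBOAT7, and the dashed lines mark a fold change of 1.5.

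The LPIN1 call did not depend on any single array. Leaving out each of the 6 arrays gave log2 fold changes of -0.69 to -0.64 for LPIN1, past both thresholds in 6 of 6 cases, with adjusted p values of 0.496 to 0.867 in limma. LPIN2 ranged from -0.42 to -0.23 and CHPT1 from -0.29 to -0.20, and neither passed in any of the 6. The sign of CHKA and of PEMT changed with the array left out, and that of CEPT1 did not (0.01 to 0.11).

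**Figure D4:**
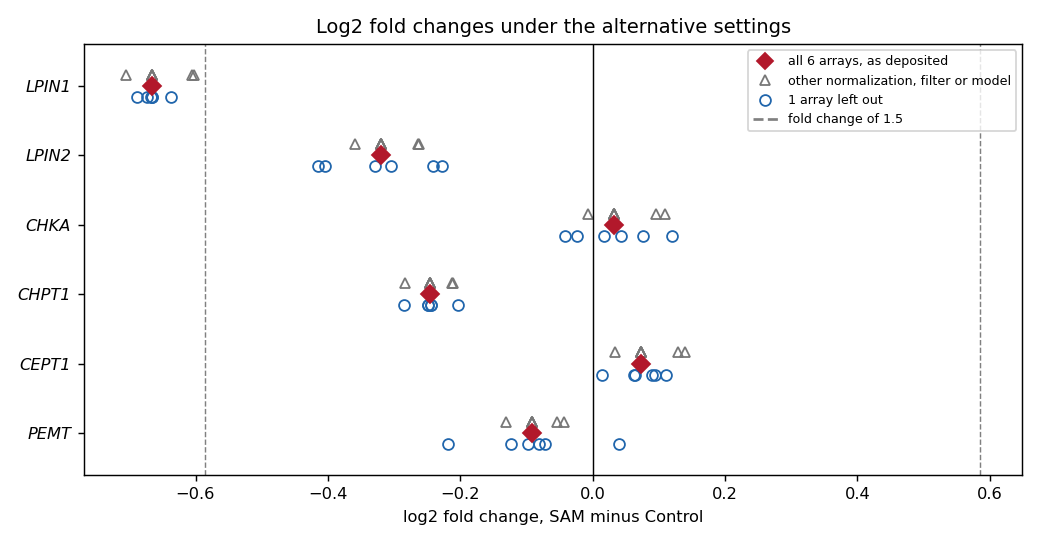
Log2 fold change, SAM minus Control (horizontal axis), of the 6 measured genes with all arrays as deposited (red diamonds), with another normalization, filter or model (grey triangles) and with 1 array left out (blue circles). LPIN1 stays below the dashed line of a 1.5-fold decrease in every case shown, and no other gene crosses it.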

How the data were processed

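Total RNA of 3 SAM and 3 Control cultures of MDA-MB-231 cells was hybridized to Affymetrix Human Gene 2.0 ST arrays. The deposited values are log2 signals per transcript cluster, which the authors made with RMA (oligo package, version not given in the sources used here); no filter is stated. The groups were compared by lmFit and eBayes of limma 3.58.1 (R 4.3.3) over 53617 transcript clusters, without covariate or block. A gene was called at an unadjusted P under 0.01 together with a change of more than 1.5-fold, the criteria of the study's methods, and p values were also adjusted by Benjamini-Hochberg over the whole table. The fit called 582 transcript clusters, more than the paper reports by these criteria, so its calls are not the same set as the paper's. The procedure was tested on simulated data with planted changes larger than any of the measured genes showed, so that test does not cover a change of the size of LPIN1's. The study's methods give the replicates as independent experiments, and the number of arrays limits the precision.

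Gene names came from the platform annotation; for a gene with several rows the one with the highest mean was used. The 10 genes and the pathway lists were chosen with earlier results of these data known. The genes named are all measured ones of the 10, any call among the other pathway genes, and up to 2 with the smallest P in each list, to which LPIN3 and the markers were added. Alternatives were other normalizations (quantile again, median centring, cyclic loess), filters on dim or unnamed rows, a trended robust eBayes, a plain test with equal variance, a replicate block, other thresholds, averaged rows and leaving out each array.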

Additional observations from a re-analysis of the deposited data

How the results depend on the processing

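The count of 1 called gene of the 6 held under the other normalizations, filters, variance models, the plain test, the replicate block, no fold change minimum, averaged rows and without any 1 array (1 to 1), and was 0 with a fold change over 2 and 0 with an adjusted p under 0.05 in place of the thresholds. Among the other pathway genes 1 (PLPP3) was called when only the transcript clusters with 1 symbol were tested, against 0 otherwise (0 to 0 without any 1 array). LPIN1 had log2 fold changes of -0.70 to -0.60 under the other normalizations and models, with adjusted p values of 0.250 to 0.867 over all its alternatives, and of -0.69 to -0.64 without any 1 array. The difference in LPIN1 minus LPIN2 was -0.46 to -0.23 without any 1 array. The sign reversed for CHKA with each array centred on its median (-0.0064) and without Control replicate 2 (-0.024) or SAM replicate 1 (range -0.041 to 0.12), and for PEMT without SAM replicate 2 (0.040; range -0.22 to 0.040). The other 71 values of the 5 uncalled genes kept their sign and stayed uncalled.

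The replicate numbers could not be shown to pair the arrays. For the pairs with equal numbers, deviations from the group means had correlations of -0.00267, -0.0748 and 0.109, within the range of -0.139 to 0.112 found for unequal numbers. With the replicate number as a block the fit called 659 transcript clusters, against 582 without it; LPIN1 kept its log2 fold change of -0.67 and its call (adjusted p = 0.621 in limma), and LPIN1 minus LPIN2 again differed by -0.35, with no test of use over 3 pairs. PEMT minus PCYT1A was not run, since no row was identified for PCYT1A. Over all transcript clusters the calls numbered 582, against 359 with dim ones left out, 165 with 1 symbol, 188 by the plain test, 921 without a fold change minimum, 143 with a fold change over 2, 0 with an adjusted p under 0.05 in limma and 934 without Control replicate 2.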
